A study of Homo sapiens with 38 samples.

Results

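Human A549 cells exposed for 24 h to 1.5 μg/cm2 of silica nanoparticles (NPs) were compared with unexposed cells on 8 of the 38 microarrays of the series. The exposed group was the 4 arrays whose titles give SiO2NPs at 1.5 μg/cm2, all in position 4 of their slides, although the description of exposed replicate 1, unlike those of the other 3, does not mention the exposure, and the control group was the 4 A549_CTRL arrays in position 1 of the same 4 slides. A549 is a human lung adenocarcinoma line used as a model of the alveolar epithelium, and the NPs were AEROSIL 200, a hydrophilic fumed amorphous silica. Both groups were kept in serum-free medium, which the controls received without NPs. The whole study covered 5 doses from 0.1 to 6.0 μg/cm2 at 24 h, with the doses 3.0 and 6.0 μg/cm2 also at 72 h, each on single-dye arrays of human transcripts. Position on the slide and exposure cannot be told apart in this comparison.

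The arrays carry 34127 probes, which fall into 3 classes by the sequence each was designed on: 24647 for RefSeq mRNA (coding), 2487 for RefSeq non-coding RNA and 6993 for sequences without a RefSeq accession, such as Ensembl transcripts, cDNA clones and expressed sequence tags, called unnamed here. A gene of the cell yields a coding mRNA that leaves the nucleus, but much of the genome is also read into RNA that is never translated. Many long non-coding RNAs stay in the nucleus, where NEAT1 builds the paraspeckles and KCNQ1OT1 coats imprinted chromatin, while intronic transcripts (names ending in -IT) arise inside an intron of a host gene. Nonsense-mediated decay, in which the kinase SMG1 phosphorylates UPF1, removes transcripts with early stop codons. The kinases ROCK1 and ROCK2 set the tension of the actin skeleton, and clathrin coats carry particles and receptors into epithelial cells.

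The labelled cell type held on its defining markers. All 6 epithelial markers were well above background on all 8 arrays, as were 4 of 7 alveolar type 2 markers (ABCA3, NAPSA, SFTPC and SFTPD), whereas SFTPB and NKX2-1 were on none. No endothelial marker of 3 and no fibroblast marker of 4 was above background on all arrays, and 3 of 4 leukocyte markers on the array were (CD14, CD68 and PTPRC). PTPRC was so by a single dim probe, at a mean log2 level of -4.36 in the controls and -4.41 in the exposed cells. None of its other probes was above background on all arrays. None of these markers was called between exposed and control cells. The summed leukocyte level ranged from -0.74 to -0.59 in the controls and from -0.50 to -0.46 in the exposed cells, and the summed alveolar type 2 level from 0.86 to 0.99 and from 1.06 to 1.17 (log2, on the scale given next), so that neither sum overlapped between the groups, whereas the epithelial, endothelial and fibroblast sums did. Of single probes tested, 13.5% did not overlap either. A sum is led by its brightest genes: the mean of ABCA3 went from 0.69 to 0.92, while SFTPC went from -3.89 to -4.11 and SFTPD from -4.06 to -4.14. By the brightest probe, 1 of 4 alveolar type 2 genes tested was higher (median -0.04) and 2 of 3 leukocyte genes (median 0.14). The part of these markers in the results was not tested.

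A level is the log2 processed signal of a probe minus the 75th percentile of its array, which was 740 to 1337 intensity units on the control arrays and 1046 to 1194 on the exposed ones. Well above background were 54.4 to 64.8% of the probes on control arrays and 63.1 to 73.6% on exposed arrays, a difference within the spread of the arrays (exact permutation test, two-sided p = 0.114; 4 against 4 arrays cannot go below 0.0286). Titles number 4 biological and, with the same numbers, 4 technical replicates in each group, but the methods speak of 3 cultures, and the arrays of replicates 1 and 2 were scanned on 1 day and those of 3 and 4 on another. Exposed arrays 1 and 2 differed by a median of 0.05 over 17883 probes, and exposed arrays 3 and 4 by 0.06, against 0.20 to 0.21 between the pairs. On probes spotted 10 times, these pairs differed by 2.00 and 1.61 times what their repeated spots allow, while the other pairs of exposed arrays differed by 7.37 to 13.1 times and pairs of control arrays by 5.02 to 10.6 times. The 4 exposed arrays, though numbered as 4 biological replicates, thus fell into 2 close pairs. Whether a pair shares a culture was not tested, and p-values over 4 arrays measure only the spread between these arrays, which may be in part technical.

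**Figure D1:**
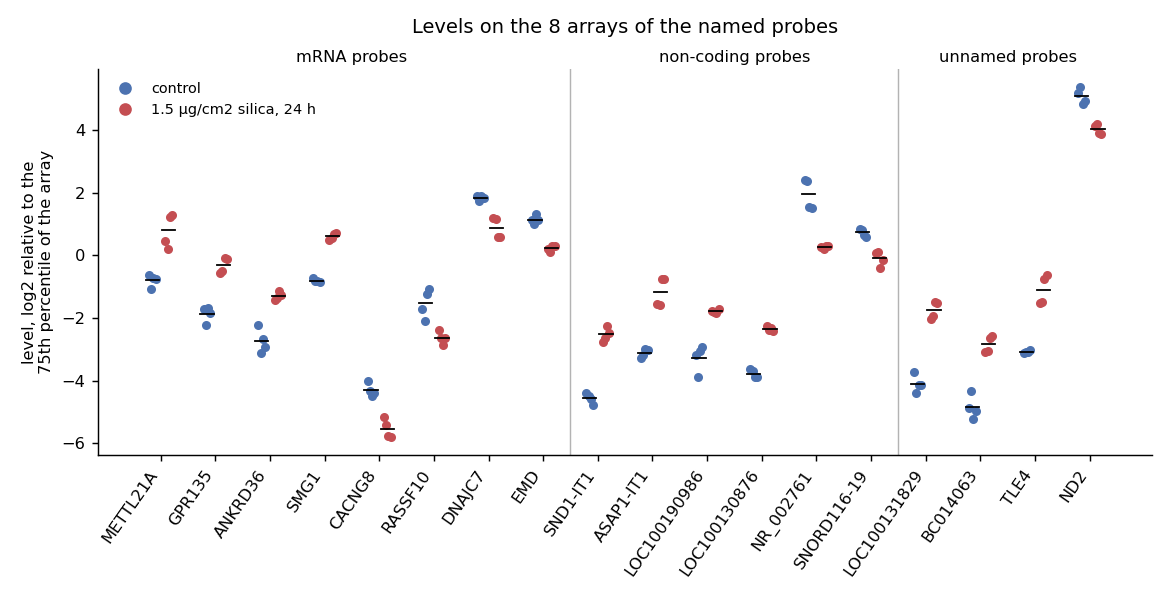
Log2 level (log2 processed signal minus the array's 75th percentile) of 18 probes on each of the 4 control and 4 exposed arrays; each point is an array and each bar the mean of its group. The probes shown were chosen among called probes whose 2 groups do not overlap, as is so for 13.5% of all tested probes. SND1-IT1 lies between -4.79 and -4.38 in the controls and between -2.75 and -2.25 in the exposed cells.

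Exposure to 1.5 μg/cm2 was followed almost wholly by increases. Of 21045 probes tested, 522 (2.48%) were called at an adjusted p under 0.05 and a fold of at least 1.5, and of these 508 were higher (2.41%) and 14 lower (0.0665%) in exposed cells. All probes tested had a median log2 fold change of 0.01 with a median standard error (SE) of 0.13, and the median of the probes called higher was 0.91. The sizes depended on the background correction: the same probes had a median of 0.51 with normexp, which models the background from the median intensities, and of 0.54 with the series matrix values. All 522 called probes had exposed and control arrays that did not overlap, as did 13.5% of all probes tested. Of the 508 that rose, 325 were well above background on all 8 arrays, 153 on some control arrays and 30 on no control array. Without adjustment, 3511 probes had p under 0.05, of which 2533 were higher and 978 lower.

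Both the count and its balance of directions depended on how the replicates were treated. With the scan day as a block 740 probes were called, with replicates 1 and 2 alone 0, although 3275 had an unadjusted p under 0.05, and with replicates 3 and 4 alone 2136, of which 1140 were higher and 996 lower (53.4% higher against 97.3% with all 8 arrays). Averaging exposed arrays 1 and 2, and 3 and 4, to 1 value each, a choice made after the arrays had been compared, left 17 probes, all of them higher: 5 mRNA, 3 non-coding and 9 unnamed. The 508 rising probes had a median difference of 0.87 in replicates 1 and 2 and of 0.98 in replicates 3 and 4, and slide by slide of 0.83, 0.93, 0.96 and 1.01. Their direction was fixed by their choice, since in all of them the groups do not overlap, so these values only describe them. "Rose" and "fell" below refer to the comparison of 4 with 4 arrays.

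The rises were spread unevenly over the classes. Among mRNA probes 243 of 17316 rose (1.4%), among non-coding probes 63 of 1094 (5.76%) and among unnamed probes 202 of 2635 (7.67%). Their median log2 fold changes were 0.79, 1.03 and 1.08, and 11 mRNA, 2 non-coding and 1 unnamed probe fell. Over all tested probes, the order of the shares was the same in each of 4 equal bins by mean level. In the dimmest bin 2.62% of mRNA, 7.54% of non-coding and 8.52% of unnamed probes rose, and in the brightest bin 0.464%, 3.01% and 4.45%. A probe could be tested through the exposed group alone, which favoured rises among dim probes. Of dimmest-bin probes above background on all 8 arrays, 26 of 1678 mRNA, 10 of 208 non-coding and 24 of 524 unnamed probes rose. There mRNA was still lowest, but unnamed probes did not exceed non-coding ones. A fit of all probes above background on all 8 arrays gave 1.21%, 4.59% and 6.55%. With all 8 arrays the whole classes did not move beyond the arrays' spread: the median level of 827 non-coding probes lay 1.54 ± 0.18 (SD, n = 4) below that of mRNA probes in the controls and 1.41 ± 0.037 below in the exposed cells (exact permutation test, two-sided p = 0.229), and for 1787 unnamed probes the distances were 1.80 ± 0.23 and 1.72 ± 0.10 (p = 0.543 by the same exact test). Without control 1 the non-coding class was 0.21 higher in exposed cells, with an exact p of 0.0286, and the unnamed class 0.19 higher, with an exact p of 0.0571.

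**Figure D2:**
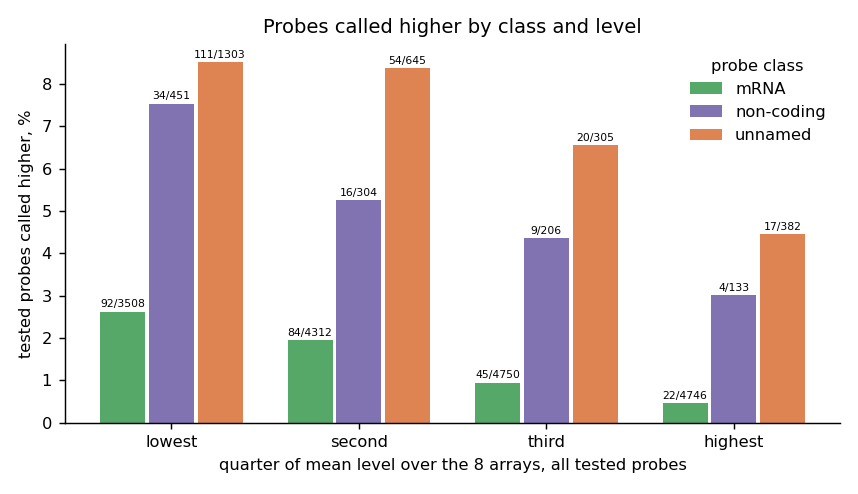
Percent of tested mRNA, non-coding and unnamed probes called higher in exposed cells (vertical axis), in each of 4 equal bins of all tested probes by mean log2 level (horizontal axis). In each bin the bar of mRNA probes is the lowest, at 2.62% in the dimmest and 0.464% in the brightest bin. Probes could be tested through the exposed group alone, which favoured rises in the dimmest bin.

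Within the unnamed class, Ensembl transcripts rose in 88 of 1012 probes, cDNA clones and sequence tags in 75 of 712, consensus sequences of tags in 8 of 161, and probes known by their own identifier alone in 31 of 750. Within the non-coding class, probes for long non-coding RNAs rose in 30 of 471 and those for transcribed pseudogenes in 15 of 327. Names of intronic transcripts made up 3 of 7, names beginning with LINC (intergenic) 10 of 130, and names of antisense transcripts 3 of 154.

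**Figure D3:**
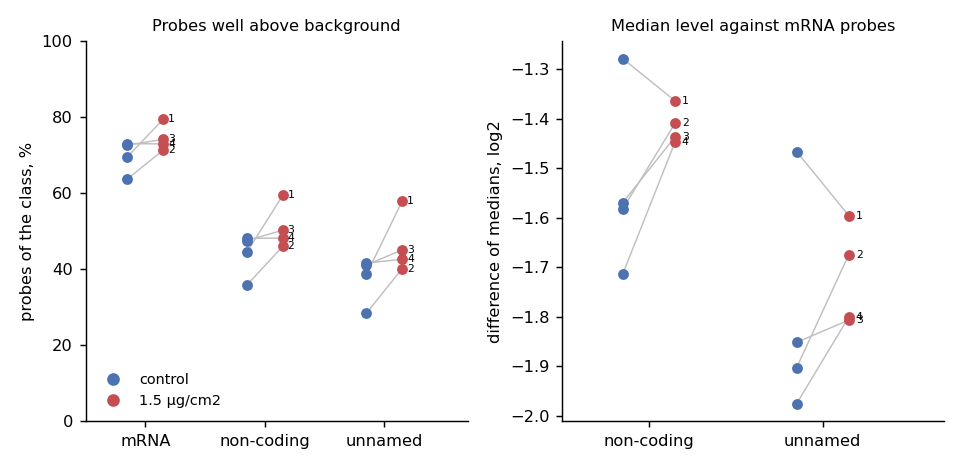
Left, percent of all probes of a class that were well above background on each array; right, median log2 level of the non-coding and of the unnamed probes minus that of the mRNA probes on the same array. Lines join the control and exposed array of a slide, numbered by replicate. Unnamed probes were above background in 37.4% on average on control arrays and 46.4% on exposed arrays (exact permutation test, two-sided p = 0.0857), with exposed array 1 the highest.

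Among non-coding RNAs, SND1-IT1 (NR_027330), which lies in an intron of the gene for the transcription coactivator and nuclease SND1 on chromosome 7, rose most of the probes measured above background on every array. Its level was -4.38, -4.48, -4.60 and -4.79 on control arrays 1 to 4 and -2.75, -2.63, -2.25 and -2.47 on exposed arrays 1 to 4. Every exposed array was thus above every control array, with a log2 fold change of 2.04 ± 0.13 (SE; adjusted p = 0.000646), 4.11-fold, against 1.18 with normexp and 1.30 with the series matrix values, and it was called also with the exposed arrays averaged in pairs (adjusted p = 0.0473). The single probe of its host SND1 differed by 0.02 ± 0.08. ASAP1-IT1 (NR_002765), inside the gene of the Arf GTPase-activating protein ASAP1, went from -3.27, -3.19, -2.98 and -3.02 to -1.56, -1.58, -0.77 and -0.75, with exposed arrays 3 and 4 the highest. It rose by 1.95 ± 0.22 (adjusted p = 0.00359), 3.87-fold, and its host probe differed by 0.46 ± 0.16 (adjusted p = 0.199). ANP32A-IT1 rose by 0.96 ± 0.14 (adjusted p = 0.0109), while both probes of ANP32A, a nuclear phosphatase inhibitor, were lower by values that were not called (-0.20 and -0.38). Of the other 4 intronic transcripts, N4BP2L2-IT2 differed by 1.79 ± 0.42 (adjusted p = 0.0638), AGPAT4-IT1 by 0.97 ± 0.22 (adjusted p = 0.0516), ERC2-IT1 by 0.76 (adjusted p = 0.336) and BIN3-IT1 by -0.09, none of them called. None of the host probes tested was called.

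Because SND1-IT1 lies inside another gene, the sequence before its annotated start shows what surrounds this transcript. It is given from RefSeq (GRCh38.p14, plus strand), chr7:127997259-127997558, from 250 bases before the start to 50 after it, and holds neither motif searched in the promoters here.
SND1-IT1: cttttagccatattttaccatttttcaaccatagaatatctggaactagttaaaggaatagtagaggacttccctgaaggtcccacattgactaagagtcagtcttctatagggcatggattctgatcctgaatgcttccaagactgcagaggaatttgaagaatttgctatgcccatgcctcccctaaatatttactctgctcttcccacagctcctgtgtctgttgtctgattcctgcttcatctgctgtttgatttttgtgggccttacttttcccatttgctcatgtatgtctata

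LOC100190986 (NR_024456) rose by 1.48 ± 0.19, LOC100130876 (XR_109361) by 1.43 ± 0.09, FAM106C by 1.33 ± 0.15, and a non-coding transcript of SLC25A51, the gene of the mitochondrial NAD carrier, by 1.30 ± 0.16 (adjusted p from 0.000465 to 0.00611). LOC100130876 was the most even of these, at -3.90 to -3.64 on control arrays and -2.40 to -2.27 on exposed arrays, and was called with the exposed arrays averaged in pairs (adjusted p = 0.0473). The 3 probes of this class with the largest bounds and without a control array above background have a bound only, since the dim group was set to the lowest signal measured above background. On the processed signal FAM106A was at least 2.11-fold higher (adjusted p = 0.00494), NUDT9P1 at least 1.47-fold (adjusted p = 0.0164) and RPS15AP10 at least 1.37-fold (adjusted p = 0.00494). Such bounds hold for the processed signal and did not hold with normexp. FAM106A and FAM106C are near copies whose signals may be shared.

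Only 2 non-coding probes fell. NR_002761, an accession without a symbol in the tables used here, was at 2.40, 2.38, 1.55 and 1.52 on the control arrays and at 0.25, 0.21, 0.29 and 0.29 on the exposed arrays. The controls split by scan day and the exposed arrays did not, and the fall was 1.70 ± 0.22 on the log2 scale (adjusted p = 0.00615). SNORD116-19, a small nucleolar RNA of the imprinted Prader-Willi region, fell by 0.82 ± 0.13 (adjusted p = 0.0122), from between 0.60 and 0.85 to between -0.40 and 0.11. Of 15 probes for small nucleolar RNAs, SNORA74B rose, by 1.09 ± 0.12 (adjusted p = 0.00391), and the other 13 were not called. The 6 ribosomal RNA probes were all lower with no call, and 18S rRNA stood at 7.73 and 7.87 on exposed arrays 1 and 2 but at 4.18 and 4.22 on exposed arrays 3 and 4.

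From a list of 27 nuclear and small-RNA host non-coding RNAs, 3 of 23 genes tested rose by their brightest probe and none fell, with a median of 0.02 against 0.0046 over the 14034 named genes, of which 200 rose and 12 fell. NEAT1 (AF001893) was at 0.26, -0.11, 0.02 and -0.17 on control arrays and at 1.29, 1.32, 1.30 and 1.37 on exposed arrays. The exposed arrays were nearly equal on both scan days, and NEAT1, a name taken from the study's list, rose by 1.32 ± 0.10 (adjusted p = 0.00101), 2.50-fold, with an adjusted p of 0.0516 with the exposed arrays averaged in pairs. KCNQ1OT1 rose by 1.22 ± 0.18 (adjusted p = 0.00913) and HYMAI, an imprinted transcript of chromosome 6, by 1.41 ± 0.16 (adjusted p = 0.00391). MALAT1, a long non-coding RNA of nuclear speckles, differed by 0.63 ± 0.18 (adjusted p = 0.111).

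Among unnamed probes, AK124002 (LOC100131829 in the study's list) rose most of those above background on all arrays. It was at -3.73, -4.40, -4.13 and -4.14 in the controls and at -2.02, -1.95, -1.50 and -1.52 in the exposed cells. The groups were far apart, by 2.36 ± 0.18 (adjusted p = 0.00101), 5.12-fold, against 1.57 with normexp and 1.67 with the series matrix values, and the call held with the exposed arrays averaged in pairs (adjusted p = 0.0473). BC014063 rose by 2.01 ± 0.20 (adjusted p = 0.00267), and ENST00000485159, named in the study's list for the Groucho corepressor gene TLE4, rose from between -3.12 and -3.01 to between -1.52 and -0.63, by 1.98 ± 0.21 (adjusted p = 0.00303). The 2 RefSeq probes of TLE4 differed by 0.06 and -0.02 and were not called. On the processed signal, with no control array above background, AK127052 was at least 2.77-fold higher (adjusted p = 0.00406), ENST00000472022 at least 2.18-fold (adjusted p = 0.00542) and THC2773489 at least 1.84-fold (adjusted p = 0.00101). The 1 unnamed probe that fell was ENST00000361453, named in the study's list for the mitochondrially encoded complex I subunit ND2. It was at 5.17, 5.38, 4.83 and 4.93 in the controls and at 4.12, 4.20, 3.89 and 3.86 in the exposed cells, lower on every array, by 1.06 ± 0.14 (adjusted p = 0.00672). Both other mitochondrially encoded genes tested, COX3 and ND5, had differences of -0.43 (adjusted p = 0.0409, under the fold limit) and -0.35 (adjusted p = 0.285).

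Among mRNA probes above background on all 8 arrays, the largest rises belonged to genes of varied roles, several of which are given here. METTL21A, a methyltransferase acting on HSP70 proteins, was at -0.62, -1.08, -0.73 and -0.75 in the controls and at 0.45, 0.20, 1.23 and 1.30 in the exposed cells, and rose by 1.58 ± 0.26 (adjusted p = 0.0154), 3.00-fold. Its exposed arrays 3 and 4 were well above 1 and 2. GPR135, an orphan G protein-coupled receptor, rose from between -2.21 and -1.68 to between -0.56 and -0.08, by 1.54 ± 0.16 (adjusted p = 0.00274). PDE4D, which degrades cAMP, rose by 1.39 ± 0.16 (adjusted p = 0.00391), NADK2, the mitochondrial NAD kinase, by 1.35 ± 0.12 (adjusted p = 0.00155), and SYNE2, a nesprin that ties the nucleus to actin, by 1.31 ± 0.16 (adjusted p = 0.00528). ANKRD36 rose by 1.44 ± 0.18 (adjusted p = 0.00557), ANKRD36B by 1.40 ± 0.26 (adjusted p = 0.0246) and RUFY2, an endosomal adaptor, by 1.23 ± 0.22 (adjusted p = 0.0214; 0.0707 with the slide as a block). The ankyrin-repeat genes belong to a family of near copies and their signals may be shared. On the processed signal, with no control array above background, POTEM was at least 1.80-fold higher (adjusted p = 0.00174), ZNF45 at least 1.60-fold (adjusted p = 0.00715) and TSTD2 at least 1.59-fold (adjusted p = 0.022).

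The 11 mRNA probes that fell included EMD, for emerin of the inner nuclear membrane, at 1.12, 0.99, 1.32 and 1.13 in the controls and 0.21, 0.12, 0.30 and 0.31 in the exposed cells. Emerin mRNA was lower on every exposed array, by 0.90 ± 0.09 (adjusted p = 0.00267), 1.87-fold. CACNG8, an auxiliary subunit of AMPA receptors, was at -4.02, -4.34, -4.49 and -4.39 and then at -5.17, -5.40, -5.76 and -5.80, and fell by 1.22 ± 0.17 (adjusted p = 0.00726). The co-chaperone gene DNAJC7 fell by 0.97 ± 0.16 (adjusted p = 0.017), to 1.18 and 1.17 on exposed arrays 1 and 2 and to 0.59 and 0.57 on exposed arrays 3 and 4, from 1.74 to 1.91. RASSF10, a member of the Ras-association family, fell by 1.09 ± 0.22 (adjusted p = 0.0365; 0.0712 with the slide as a block), PRPS1, a phosphoribosyl pyrophosphate synthetase, by 0.80 ± 0.17 (adjusted p = 0.045; 0.0942 with the slide as a block), and DLST, an enzyme of the citric acid cycle, by 0.64 ± 0.14 (adjusted p = 0.0484).

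A question the design raises is whether a rise was seen by every probe of a gene. Of 3337 genes with more than 1 tested probe, 149 had a probe that rose. In 7 of these every probe rose (ANKRD36B, INPP4B, LINC00473, LINC01004, SHANK2, SYNE2 and TTLL5), and in 136 only 1 did. Of the rising probes in such genes, 44 were the brightest of their gene, of which there is 1 for each of the 3337 genes. The other 120 were not the brightest, and such probes gave the 3959 pairs below. Of all tested probes 4.50% rose in the dimmest bin and 0.817% in the brightest, under a filter that favoured dim probes high in exposed cells. Of probes above background on all 8 arrays, 60 of 2410 rose in the dimmest bin, 149 of 5156 in the second and 42 of 5170 in the brightest. The difference between the change of a probe and that of the brightest probe of its gene was tested for all 3959 pairs, and 142 pairs (3.59%) in 136 genes were called, 110 with the other probe changed more upward and 32 more downward. With the slide as a block 42 pairs were called, with the exposed arrays averaged in pairs 0, and without single arrays 5 (control 4 or exposed 3), 7 (exposed 4), 25 (exposed 2), 31 (exposed 1), 55 (control 3), 91 (control 1) and 106 (control 2). Among the called pairs was one of SMG1, chosen here after its value was seen, whose probe at -0.84 to -0.73 in the controls and 0.50 to 0.70 in the exposed cells changed by 1.45 more than its brightest probe (adjusted p = 0.00297). Of 149 probes named only in the study's own list of modulated transcripts and sharing a gene with a RefSeq probe, 45 rose, and in 41 of these no RefSeq probe of the gene did. Of all tested probes 2.41% rose. The list names probes because they were modulated in this series, so these counts follow from that choice and only describe the probes.

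**Figure D4:**
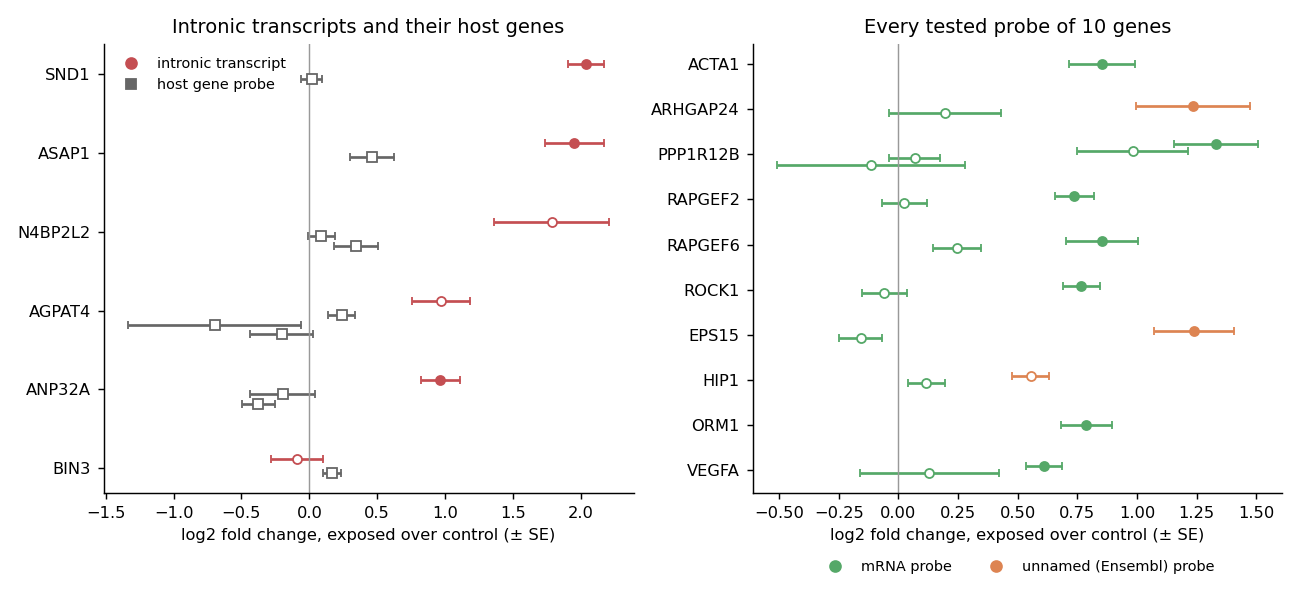
Left, log2 fold change ± SE of the 6 tested intronic transcripts whose host gene had a tested probe, with those host probes; right, the same for every tested probe of 10 genes. Filled points were called and open points were not; SND1-IT1 lies at 2.04 and its host SND1 at 0.02.

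Several genes that act on the actin skeleton rose by 1 probe and not by another. ROCK1, a kinase that raises myosin activity, was at -2.61, -2.46, -2.61 and -2.52 in the controls and at -1.88, -1.84, -1.69 and -1.73 in the exposed cells by the probe that rose (0.77 ± 0.08, adjusted p = 0.00267). Its other probe differed by -0.06 ± 0.09, and the difference between both was 0.83 (adjusted p = 0.0126). PKN2, a kinase related to protein kinase C, rose by its brighter probe by 0.93 ± 0.11 (adjusted p = 0.00391), from between -1.25 and -0.90 to between -0.27 and 0.00, and differed by -0.03 by the other (adjusted p of the difference 0.0431). ROCK2 did not pass by either probe (0.72, adjusted p = 0.0936, and -0.09), nor did ACTB, cytoplasmic actin (0.91, adjusted p = 0.271, and 0.07).

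PPP1R12B, a subunit of myosin phosphatase, rose by 1 of 4 probes, by 1.33 ± 0.18 (adjusted p = 0.00672), and its brightest probe differed by 0.07, which was 1.26 less (adjusted p = 0.0225). RAPGEF2 rose by 0.74 ± 0.08 (adjusted p = 0.00347) and RAPGEF6 by 0.85 ± 0.15 (adjusted p = 0.0214), both exchange factors of Rap GTPases, while the second probe of each differed by 0.02 and 0.25. Those differences within a gene were 0.71 (adjusted p = 0.0182) and 0.61 (adjusted p = 0.0394). ACTA1, skeletal muscle actin, rose by 0.85 ± 0.14 (adjusted p = 0.0161). Among Ensembl transcripts of GTPase-activating proteins, that of STARD13 rose by 1.87 ± 0.19 (adjusted p = 0.00274), that of ARHGAP29 by 1.35 ± 0.25 (adjusted p = 0.0241) and that of ARHGAP24 by 1.23 ± 0.24 (adjusted p = 0.0297). These transcripts were above background on 1, 2 and 2 of 4 control arrays, so that the sizes rest in part on signal at background, and the call of each was lost with normexp, where they differed by 0.54 (adjusted p = 0.115), 0.39 (adjusted p = 0.168) and 0.31 (adjusted p = 0.287). The RefSeq probes of these genes differed by 0.40 (adjusted p = 0.0537), -0.14 and 0.19. The Ensembl transcripts bear these gene names through the study's list, which named them because they had been modulated in these samples.

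Of 35 genes of clathrin-mediated endocytosis none rose or fell by the brightest probe (median 0.02). Where 2.41% of all tested probes rose, 1 of the 50 probes of these genes did. That probe, ENST00000371727 of the coat adaptor EPS15, was at -1.56, -2.12, -1.70 and -1.95 in the controls and at -0.60, -0.96, -0.45 and -0.36 in the exposed cells, a rise of 1.24 ± 0.17 (adjusted p = 0.0071). The RefSeq probe of EPS15 stayed between -1.16 and -0.75 on all 8 arrays and differed by -0.16 ± 0.09 (adjusted p = 0.436). The Ensembl transcript of HIP1, which links clathrin to actin, differed by 0.55 ± 0.08 (adjusted p = 0.00853), 1.47-fold and so under the fold limit, and its RefSeq probe by 0.12.

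Of 30 genes of splicing and nonsense-mediated decay none rose by the brightest probe (median 0.14), but 9 of all 56 probes did (median 0.19) and none fell, against 508 of 21045 tested probes (2.41%, median 0.01). Of the 6 tested probes of SMG1, 4 rose, by 1.41 ± 0.08, 1.16 ± 0.10, 0.68 ± 0.12 and 0.64 ± 0.12 (adjusted p = 0.000465, 0.00148, 0.0178 and 0.0306), and the last pair had adjusted p of 0.0655 and 0.089 with the slide as a block. The gene has many pseudogene copies, and probes may share their signal. UPF2, which bridges the decay complex, rose by 0.82 ± 0.15 (adjusted p = 0.0235) and 0.67 ± 0.09 (adjusted p = 0.00615) by 2 of 5 probes. SRSF11, a splicing factor, rose by 0.81 ± 0.17 by 1 of 3 probes (adjusted p = 0.0439; 0.103 with the slide as a block).

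Of 23 immediate-early genes, which answer a stimulus within minutes, 2 rose and 1 fell (median 0.04). By the same count, with the brightest probe of each gene, 200 of all 14034 named genes rose and 12 fell. FOSL2, a partner in the AP-1 factor, was at -0.85, -0.39, -0.73 and -0.66 in the controls and at -0.04, -0.12, 0.07 and 0.02 in the exposed cells, and rose by 0.64 ± 0.11 (adjusted p = 0.0172; 0.0549 with the slide as a block). FOSB, of the same family, rose by 0.60 ± 0.13 (adjusted p = 0.0445; 0.104 with the slide as a block). EGR2, a zinc-finger factor, was at -0.95, -0.84, -1.01 and -0.97 in the controls and between -1.60 and -1.45 in the exposed cells. It fell by 0.59 ± 0.08 (adjusted p = 0.00611), 1.50-fold, with all exposed arrays below all controls. FOS itself differed by -0.32 ± 0.07 (adjusted p = 0.048, under the fold limit).

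Of 22 genes of NF-kB and cytokines 1 rose (median 0.14): TNFAIP3, the NF-kB feedback inhibitor A20, went from -3.63, -3.96, -3.53 and -3.48 to -3.01, -3.03, -2.99 and -2.94, by 0.66 ± 0.11 (adjusted p = 0.0175). Of 13 hypoxia genes 1 rose (median -0.03), VEGFA, the endothelial growth factor, by 0.61 ± 0.08 (adjusted p = 0.00588), from between -1.27 and -1.17 to between -0.72 and -0.49. Its second probe differed by 0.13 ± 0.29. Of 20 genes of coagulation and the acute phase 1 rose (median 0.03), ORM1, the acute-phase protein orosomucoid, by 0.79 ± 0.11 (adjusted p = 0.00715). None of 22 antioxidant genes was called: they lay between -0.37 and 0.30 (median 0.01), among them HMOX1, heme oxygenase, at -0.12 ± 0.13 and NQO1 at -0.37 ± 0.18. None of 42 ribosomal protein genes was called either (median 0.05). Over all 14034 named genes 200 rose by the brightest probe, and no list was tested against that share.

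The promoters of FOSL2 and TNFAIP3 are shown because each of these genes codes for a part of a pathway whose motif was searched: AP-1 as TGANTCA and NF-kB as GGG, any 2 bases and TTTCC, both on either strand. Sequences are from RefSeq (GRCh38.p14, plus strand), from 250 bases before to 50 after the start, with matches in capitals. FOSL2 (chr2:28392608-28392907) holds 1 AP-1 match, and TNFAIP3 (chr6:137867009-137867308) holds 2 NF-kB matches, written here in the letters of the opposite strand.
FOSL2: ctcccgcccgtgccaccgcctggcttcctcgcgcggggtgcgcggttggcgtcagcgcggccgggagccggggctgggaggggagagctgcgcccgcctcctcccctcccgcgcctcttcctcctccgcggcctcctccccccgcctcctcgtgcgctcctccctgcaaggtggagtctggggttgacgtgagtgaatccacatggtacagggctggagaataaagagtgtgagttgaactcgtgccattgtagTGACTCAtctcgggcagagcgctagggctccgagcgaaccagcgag
TNFAIP3: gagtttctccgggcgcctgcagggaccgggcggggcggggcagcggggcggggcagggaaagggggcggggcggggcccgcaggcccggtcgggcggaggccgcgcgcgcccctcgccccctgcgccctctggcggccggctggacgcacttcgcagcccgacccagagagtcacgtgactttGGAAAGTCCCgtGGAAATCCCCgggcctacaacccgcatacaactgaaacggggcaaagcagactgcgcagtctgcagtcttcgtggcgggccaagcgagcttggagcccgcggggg
Of 27305 promoters in the table, 7.76% hold an AP-1 match and 1.92% an NF-kB match. Of 213 genes with a rising mRNA probe, 168 had a promoter there, of which 11 (6.55%) held AP-1 and 1 (0.595%) NF-kB. Of 44 genes with a rising non-coding probe, 16 had a promoter, 1 of them (6.25%) with AP-1 and 0 with NF-kB. A match is a description of the letters and not of binding.

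The same probes were then followed at the other doses, each against controls on its own slides. The 508 probes that rose at 1.5 μg/cm2 had a median log2 difference of 0.05 at 0.1 μg/cm2, 0.06 at 1.0 μg/cm2, 0.08 at 3.0 μg/cm2 and -0.09 at 6.0 μg/cm2. Not all of them passed the filter at the other doses. Called higher were 0 of 419 tested at 0.1 μg/cm2, 0 of 410 at 1.0 μg/cm2 and 3 of 486 at 3.0 μg/cm2. At 6.0 μg/cm2 9 of 482 were called higher and 20 lower, where 1191 of all 22195 tested probes were called lower. Over all probes, calls of higher level numbered 0 at 0.1 μg/cm2 (limma, with 2050 probes at an unadjusted p under 0.05), 1 of 21101 (0.00474%) at 1.0 μg/cm2, 330 of 22116 (1.49%) at 3.0 μg/cm2 and 876 of 22195 (3.95%) at 6.0 μg/cm2. The doses 0.1 and 1.0 μg/cm2 share their controls, as do 3.0 and 6.0 μg/cm2, whereas 1.5 μg/cm2 has controls of its own.

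**Figure D5:**
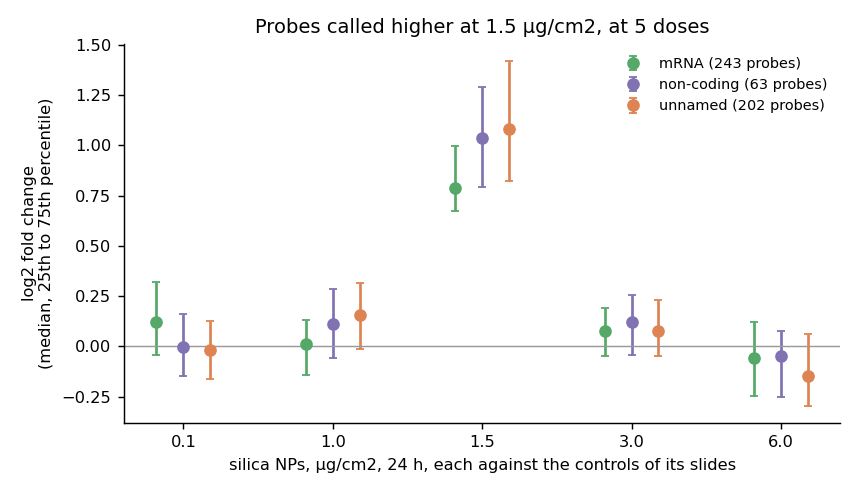
Median (points) and quartiles (bars) of the log2 difference from controls, at each of the 5 doses at 24 h, of the 243 mRNA, 63 non-coding and 202 unnamed probes called higher at 1.5 μg/cm2. The values at 1.5 μg/cm2, with medians of 0.79, 1.03 and 1.08, chose the probes; at the other doses the medians lie between -0.15 and 0.15.

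Since different doses were run on different slides with different controls, the difference between responses was tested as an interaction. The response at 1.5 μg/cm2 differed from that at 1.0 μg/cm2 in 461 of 21692 probes (2.13%), 435 of them higher at 1.5 μg/cm2, and from that at 3.0 μg/cm2 in 783 of 22407 (3.49%), 608 of them higher. Among the 508 rising probes 307 and 262 were called in these tests. These probes were chosen by their change at 1.5 μg/cm2, which is part of both tests, so the counts only describe them. The same holds for the single probes named here and in the next paragraph. SND1-IT1 responded more by 1.75 than at 1.0 μg/cm2 (adjusted p = 0.000784) and by 1.87 than at 3.0 μg/cm2 (adjusted p = 0.00166), and AK124002 by 2.37 (adjusted p = 0.000123) and 2.32 (adjusted p = 0.0012). ROCK1 differed by 0.74 (adjusted p = 0.00442) and 0.90 (adjusted p = 0.00742), the EPS15 transcript by 1.18 (adjusted p = 0.00391) and 1.23 (adjusted p = 0.0201), and CACNG8 by -1.60 (adjusted p = 0.0115) and -1.74 (adjusted p = 0.00795).

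For other members the interaction test did not tell the response at 1.5 μg/cm2 from those at 1.0 and 3.0 μg/cm2, and no interaction with 6.0 μg/cm2 was run. NEAT1 differed from controls by 0.76 at 1.0 μg/cm2 (adjusted p = 0.0655), 0.87 at 3.0 μg/cm2 (adjusted p = 0.0463) and 0.75 at 6.0 μg/cm2 (adjusted p = 0.0863), and its interactions had adjusted p of 0.0503 and 0.334. EGR2 differed by -0.71 at 1.0 μg/cm2 and fell by 1.31 at 3.0 μg/cm2 (adjusted p = 0.00765) and by 1.12 at 6.0 μg/cm2 (adjusted p = 0.00959), with interactions of 0.12 (adjusted p = 0.879) and 0.72 (adjusted p = 0.0533). TNFAIP3 differed by 0.25 at 1.0 μg/cm2 and rose by 0.72 at 3.0 μg/cm2 (adjusted p = 0.0137) and by 1.56 at 6.0 μg/cm2 (adjusted p = 0.000213), with interactions of 0.41 (adjusted p = 0.228) and -0.06 (adjusted p = 0.888). FOSB, by contrast, differed by -0.997, -0.63 and -0.58 at these doses, and its response at 1.5 μg/cm2 was higher than those at 1.0 and 3.0 μg/cm2 by 1.60 (adjusted p = 0.00301) and 1.23 (adjusted p = 0.0123).

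Position 4 was compared with position 1 on the 1 slide where both held control cells of the low doses: there the 508 rising probes differed by a median of 0.0039, all tested probes by 0.0147, and 256 of 508 were higher in position 4. That is 1 array against 1, from different control replicates and another set of slides. It cannot separate position from exposure on the slides compared here, and a part of position was not tested. Of the 63 named probes that were called, 41 kept their call in all 8 fits without 1 array, and 7 with the exposed arrays averaged in pairs (among them SMG1, SND1-IT1, LOC100130876, AK124002, THC2773489 and the STARD13 transcript). The calls lost without 1 array had adjusted p up to 0.0564 for DNAJC7 (without control 3, exposed 3 or exposed 4), 0.0518 for SNORD116-19 (exposed 4), 0.0602 for NUDT9P1 (exposed 3 or 4), 0.0626 for ACTA1 and 0.0816 for RAPGEF6 (each without exposed 1, 3 or 4). TNFAIP3 lost its call without control 2 or any 1 exposed array (adjusted p up to 0.0723), TSTD2 and the UPF2 probe at 0.82 without control 2 or exposed 1, 3 or 4 (up to 0.0841 and 0.0875), and ARHGAP24 without control 3 or any 1 exposed array (up to 0.107). ANKRD36B lost it without control 2, 3 or 4 or exposed 3 or 4 (up to 0.0851), RUFY2 without control 3 or 4 or exposed 1, 3 or 4 (up to 0.0805), FOSL2 without control 1, 3 or 4 or exposed 1, 3 or 4 (up to 0.0705), and the SMG1 probe at 0.68 without control 3 or exposed 1, 2 or 3 (up to 0.0623). RASSF10, DLST, ARHGAP29, FOSB, SRSF11 and the SMG1 probe at 0.64 kept it in 1 of 8 such fits and PRPS1 in 0, with adjusted p up to 0.119, 0.125, 0.0918, 0.144, 0.138, 0.0892 and 0.145. EGR2 fell under the fold limit without control 2, exposed 1 or exposed 4, and VEGFA without exposed 2, with adjusted p up to 0.0288 and 0.0268.

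The background correction ended more named calls than any scaling did. With normexp 33 of the 63 named probes lost their call, and with the series matrix values 35, all without a change of direction. Among them were all 9 probes given as bounds, whose log2 differences with normexp were 0.25 for POTEM, 0.09 for ZNF45, 0.24 for TSTD2, 0.33 for FAM106A, 0.13 for NUDT9P1, 0.12 for RPS15AP10, 0.45 for AK127052 (LOC100499221), 0.46 for ENST00000472022 (A_23_P371076) and 0.25 for THC2773489 (A_33_P3328061), with adjusted p from 0.204 to 0.807. Each of these lies below the bound given above, so none of the 9 bounds held with normexp. Of the genes above background on 2 or 3 control arrays, ACTA1 (3 arrays) differed by 0.16, RAPGEF6 (3) by 0.21, PPP1R12B (2) by 0.30, HYMAI (2) by 0.49 and ORM1 (3) by 0.32, none of them called with normexp. ROCK1 (0.53), EGR2 (-0.54), VEGFA (0.52) and the SMG1 probe at 0.68 (0.56) kept an adjusted p under 0.05 and fell short of the fold limit alone. RUFY2 (0.72), CACNG8 (-0.54), PRPS1 (-0.78), DLST (-0.63), RAPGEF2 (0.40), KCNQ1OT1 (0.62), FOSB (0.60), TNFAIP3 (0.26), SRSF11 (0.76), the SMG1 probe at 0.64 (0.39) and the UPF2 probe at 0.67 (0.37) lost the adjusted p, up to 0.221.

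Values lay close together on both sides of the thresholds. Just inside the fold limit lay ENST00000507766 and ZNF169, both at 0.59, and just outside it N4BP2 at 0.58. Just inside the limit on adjusted p lay DCLK2 at 0.94 (adjusted p = 0.0496), and just outside it CFP at 0.65 (adjusted p = 0.0501).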

How the data were processed

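Gene expression was measured in A549 cells on single-dye human arrays. The authors deposited each array's scanner output, in which per the file headers Agilent Feature Extraction 11.0.1.1 gave a background-corrected processed intensity, not normalized between arrays, and marks for spots above background. The deposited series matrix holds the same median intensity values (largest difference 0). The study's methods give an unpaired t-test with Benjamini-Hochberg correction; no normalization is given in the sources used here.

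From the deposited intensities, log2 values minus each array's 75th percentile were computed, without control, non-uniform and outlier spots, and spots of a probe were averaged. Probes well above background on every measured array of at least 1 group, with at least 2 measured arrays in each, were compared by limma 3.58.1 (lmFit and eBayes, R 4.3.3, statmod 1.5.0, with plots from matplotlib 3.10.9 under Python 3.11.15). A called probe had a Benjamini-Hochberg adjusted p under 0.05 over all probes tested and a fold of at least 1.5. Of the called probes 10 were not measured on all 8 arrays. For a probe below background in 1 group, the bound sets that group, per array, to the higher of its own signal and the lowest signal above background. Alternatives changed the test, background correction (normexp with an offset of 50 on median intensities, as a mean intensity was not used here), scaling, filter, blocks and replicates. The scripts were tested on simulated data. Precision was limited by how far a signal lay above background and by having 4 arrays a group.

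The replicate number names the slide in the labels and so pairs the arrays; deviations from the group means on the same slide correlated at 0.47, 0.074, 0.26 and 0.36. Names came from RefSeq accessions for 25771 probes and only from the study's list for 555, which lists probes because they were modulated, so no count of these supports a direction; 7801 probes had none. The rule for named probes took, per class, those with the largest rises, falls and bounds, called list genes and genes the study names at this dose. The members and lists were chosen with earlier results of these data known. Y-linked genes were not named, and some called genes and 1 gene list are not reported here.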

Additional observations from a re-analysis of the deposited data

Results flagged for a closer look

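Of 158 groups of 4 arrays checked, 7 held an array far from the other 3, where chance gives about 1 in 20. Log2 levels were -0.73 for SMG1 on control 1 (others -0.84 to -0.82), -5.14 for THC2773489 on exposed 1 (others -4.90 to -4.88) and -4.54 for ORM1 on control 1 (others -4.80 to -4.76). The Ensembl transcript of ARHGAP24 was at -6.43 on control 2 (others -5.44 to -5.36) and its RefSeq probe at -5.11 on exposed 4 (others -5.77 to -5.73). The Ensembl transcript of STARD13 was at -5.93 on control 4 (others -6.38 to -6.32) and at -4.94 on exposed 2 (others -4.23 to -4.15), and was called with either array left out.

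The response at 1.5 μg/cm2 differed from that at 1.0 μg/cm2 in 461 probes and from that at 3.0 μg/cm2 in 783 probes by the interaction test. By class these were 279 mRNA, 42 non-coding and 140 unnamed probes for 1.0 μg/cm2, and 578, 61 and 144 for 3.0 μg/cm2. Each interaction compares sets of slides that share no control, so that slide set and dose cannot be told apart in it.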

How the results depend on the processing

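Every one of the 63 named probes kept its direction in each alternative tried. Their groups do not overlap, so fits with fewer or averaged arrays, or with another test on the same values, could not reverse it. In each setting that called any probe the share of probes called higher was lowest for mRNA. The counts moved. Against 522 called in all (243 mRNA, 63 non-coding and 202 unnamed probes higher), the methods' t-test gave 298 (136, 36 and 119), normexp 186 (78, 27 and 74), no filter on dim probes 262 (100, 34 and 120), the series matrix values 180 (80, 27 and 68), a random block for replicates 1 with 2 and 3 with 4 of a group 92 (33, 11 and 46; estimated correlation 0.63; 21 named probes called), exposed arrays averaged in pairs, chosen after seeing the data, 17 (5, 3 and 9), replicates 1 and 2 alone 0 (0, 0 and 0), replicates 3 and 4 alone 2136 (656, 120 and 364; 53.4% higher) and all 24 h arrays 969 (457 mRNA, 317 unnamed; 88.9% higher against 97.3%). Requiring all 8 arrays above background left 38 non-coding and 117 unnamed probes; without a fold limit 373 mRNA probes were higher, and with scan day as a block 369. The slide as a replicate block gave 548 calls, of which 530 were higher and 420 among the 508, and changed no named call but the 8 given. Without single arrays the totals ran from 276 without exposed 4 and 283 without exposed 3 to 568 without control 1, and without single slides from 56 without replicate 4, 94 without replicate 3 and 261 without replicate 2, with 141 mRNA probes without replicate 1; over both kinds mRNA ran from 20 to 238, non-coding from 5 to 69 and unnamed from 31 to 246. The interaction with 1.0 μg/cm2 gave 306 calls without a filter and 361 to 692 without single arrays (692 without control 1); that with 3.0 μg/cm2 gave 390 by normexp, 476 without a filter and 576 to 1001. Pairs within a gene numbered 93 by quantile normalization, 47 by normexp, 42 with the replicate block, 0 with exposed arrays averaged and 5 to 106 without single arrays (5 without control 4 or exposed 3). Class levels differed by 0.0625 to 0.21 (non-coding) and 0.02 to 0.19 (unnamed), and probes above background by 3.52 to 7.09 percentage points; without control 1 the non-coding class level passed at an exact p of 0.0286. The causes were not tested. Signals near background limit the dimmest probes.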

Other observations

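Bitter taste receptors, G protein-coupled receptors known from taste cells and airway epithelium, were noticed among the called probes after their values were seen and are described without a test. Of 25 TAS2R probes on the array 7 were tested, 18 were not and 11 were above background on no array. Of those tested, TAS2R10, TAS2R30, TAS2R43, TAS2R45 and TAS2R50 passed through the exposed group alone. Of the 7 tested, 5 were called higher, where 1.4% of all tested mRNA probes and 2.62% of those in the dimmest bin were. The family was noticed by its values, and the filter favoured probes high in exposed cells, so this count only describes them. TAS2R14, above background on all 8 arrays, was at -4.50, -4.64, -4.09 and -4.23 on the control arrays and at -3.17, -3.24, -3.19 and -3.20 on the exposed arrays, a log2 fold change of 1.17 ± 0.12 (limma, adjusted p = 0.00294). TAS2R31 (1.06), also above background on all 8 arrays, was called too, as were TAS2R30, TAS2R10 and TAS2R45, which were above background on 3, 2 and 1 of 4 control arrays and whose sizes rest in part on signal at background. TAS2R43 (0.97, adjusted p = 0.0819) and TAS2R50 (0.21, adjusted p = 0.734) were not. The receptors are close in sequence, so their probes may share signal.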
